A study of Mus musculus with 4 samples.

Results

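Splenic dendritic cells (DC) of MARCO-/- mice were compared with those of WT mice after both had been cultured overnight with LPS, a bacterial ligand of TLR4. Marco encodes a scavenger receptor that binds bacteria and particles. The ratio of the MARCO-/- LPS array to the WT LPS array was taken for each probe set, and a probe set was described where the brighter of these values was at least 32. There were 10892 such probe sets of 45037, and 8317 of them carried exactly 1 gene symbol. At 1 probe set a gene they stood for 5908 of 17097 genes. A pair of arrays of the same genotypes with PBS, the buffer control, is given beside them. DC of WT mice and of mice that lack Marco in every cell were cultured with PBS or with LPS and 1 array was run for each of the 4 conditions. All were from adult mice on the background that the labels write as C56BL/6, and the cells of several mice were pooled after positive selection for CD11c. The study made several such pools of each genotype, and the sources do not say which pool an array stands for. Values are RMA intensities on a linear scale, which follow the amount of a transcript at a given probe set and are not comparable between genes. With 1 array on each side there are no replicates, no error of a ratio and no test. A gene is called higher or lower where its ratio reached 2-fold, the threshold of the study's methods, and each call compares these arrays, not the conditions.

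DC sample microbes through pattern recognition receptors, and LPS, held by Cd14 and Ly96, starts TLR4 signalling. One branch activates NF-κB and cytokine genes, and another induces type I interferon, which then acts back on the cell and switches on antiviral genes. Mature DC lower their uptake of antigen, move peptide-loaded MHC to the surface and gain costimulatory molecules. In bulk samples such as these, fewer cells of a type and less RNA per cell cannot be told apart.

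Marco itself had intensities of 3.15 and 4.25 in WT and MARCO-/- with LPS and 8.05 and 3.95 with PBS. The median of all intensities was 4.87, so all of them lay near the background. Since the sources do not place this probe set against the targeted exons, its level is no check of the knockout. The gene of CD11c, Itgax, was at 548 and 621 on the PBS arrays but at 12.9 and 16.4 on those with LPS, and was therefore below 32 in the comparison. H2-Aa, a chain of MHC class II, was at 4999.8 and 5231 without and 3013 and 2035 after LPS (log2 ratio -0.57). The selected marker was thus low on both LPS arrays, while the class II gene stayed bright.

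Between the LPS arrays 154 genes (2.61% of 5908) reached 2-fold above WT in MARCO-/- and 61 (1.03%) reached 2-fold below. For probe sets the counts were 297 (2.73%) and 112 (1.03%). Most genes differed little, and 84.8% of them lay within 1.5-fold. The lower genes differed more: their median log2 ratio was -2.78, against 1.19 for the higher ones. At least 8-fold were 28 lower and 2 higher genes. At 1.5-fold 750 genes (12.7%) were higher and 146 (2.47%) lower, and at 3-fold 15 (0.254%) and 46 (0.779%). Over all 45037 probe sets, dim ones included, 838 (1.86%) and 446 (0.99%) passed 2-fold. With PBS, 49 of 5792 genes (0.846%) were higher and 25 (0.432%) lower. The dimmer of the LPS values was below 16 for 39 of the 154 higher and 41 of the 61 lower genes, so these folds were taken against intensities close to the background. Just inside and outside of the limit of 32, a probe set of H2-Ob had a brighter value of 32.019 and a log2 ratio of -0.24, and an unnamed probe set had 31.995 and 0.15.

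The excess of higher genes depended on how the arrays were scaled. The median log2 ratio of the genes was 0.14, and it declined with brightness over the probe sets. It was 0.22 for those between 32 and 64, and 0 in the brightest class. The share of probe sets called higher was 4.67% in the dimmest of these classes and 0.207% in the brightest. After quantile normalization of the LPS arrays the median over genes was 0.01, with 73 genes called higher and 87 lower. Of the called genes 45.6% were then higher, against 71.6% as deposited. Centring the arrays on their medians over all probe sets moved the split the other way, to 231 genes higher and 58 lower, or 79.9% higher. With quantile normalization all 61 lower genes kept their 2-fold difference, while 80 of the 154 higher ones did so at the probe set that stood for them. With centring over all probe sets, all 154 higher and 58 of the 61 lower genes kept it. A difference below about 0.14 on the log2 scale is therefore read here against that shift and not as a direction.

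**Figure D1:**
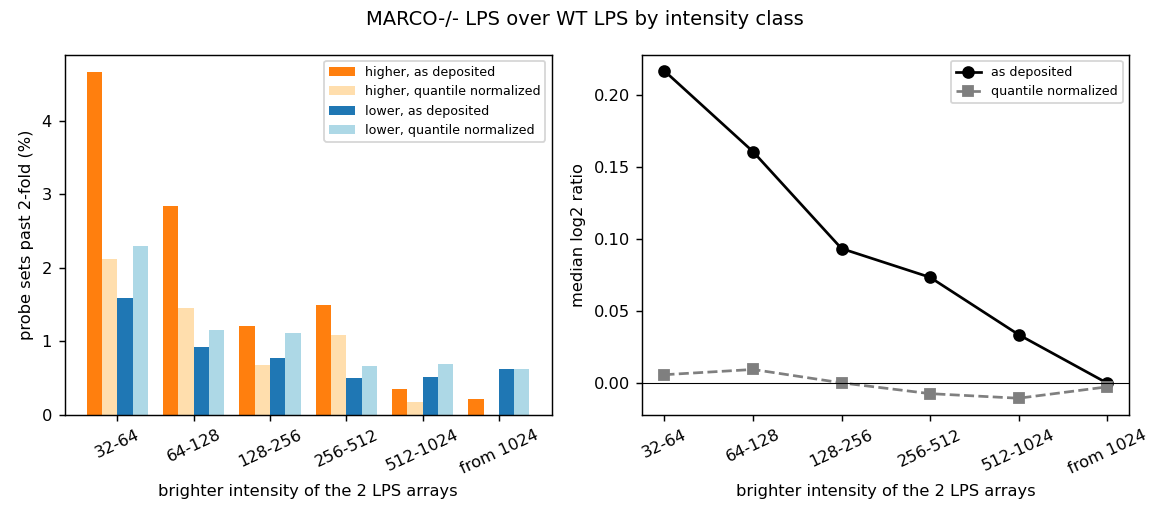
Left, bars give the percentage of probe sets past 2-fold upward (orange) or downward (blue) in MARCO-/- against WT with LPS, by the brighter intensity, with pale bars after quantile normalization. Right, lines give the median log2 ratio of each class, which was 0.22 in the dimmest and 0 in the brightest class as deposited.

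The probe sets that target the same gene are the repeat these arrays offer. They share the RNA, so they do not replicate the condition. Over 1733 genes with several probe sets of at least 32, the log2 ratios had a pooled SD of 0.28 within a gene. Of 30 called genes with several such probe sets, 17 had all of them past 2-fold in the same direction. For Hipk2, a kinase of stress responses, and Slc25a37, the mitochondrial iron importer, another probe set was past 2-fold in the opposite direction. The other 185 called genes rested on 1 probe set.

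**Figure D2:**
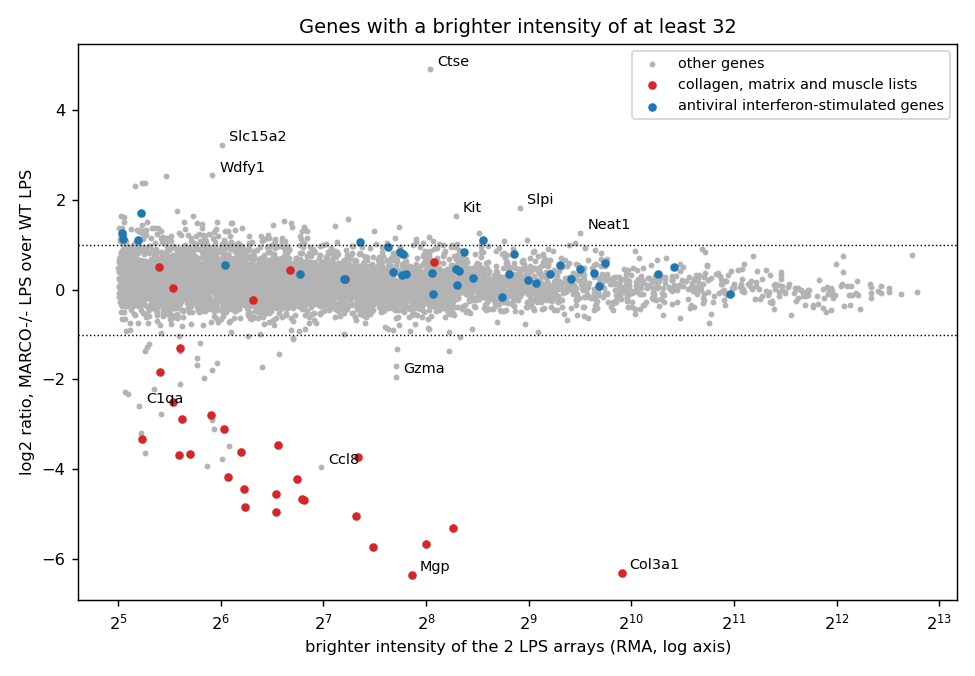
Each point is a gene, with the brighter intensity of the LPS arrays on the x axis (log axis) and the log2 ratio of MARCO-/- LPS over WT LPS on the y axis. Dotted lines mark 2-fold. Collagen, matrix and muscle genes (red) hold the lowest ratios, with Mgp at -6.35, and Ctse is highest at 4.91.

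Extracellular matrix and muscle genes made up the lowest end of the comparison. Of 30 collagens, 42 other matrix genes and 28 skeletal muscle genes on the array, 7, 12 and 8 reached 32 with LPS. All 7 collagens were lower in MARCO-/- with LPS (median log2 ratio -4.21), as were 10 of the 12 other matrix genes (-3.54). Of the 8 skeletal muscle genes 7 were lower (-4.12), and none of these lists held a higher gene. The lower ones reached 32 on the WT LPS array alone. The limit thus admitted them through the array where they were bright, and the counts are no separate support. Over all genes the median was 0.14 and 1.03% were lower. Col3a1, a fibrillar collagen of soft tissue, had 4.57, 315, 959 and 12.1 on the WT PBS, MARCO-/- PBS, WT LPS and MARCO-/- LPS arrays (log2 ratio with LPS -6.31). It was thus bright in WT with LPS and in MARCO-/- with PBS, and near background on the other arrays. In the same order, Mgp, which keeps soft tissue from calcifying, had 3.03, 61.7, 233 and 2.86 (-6.35). The collagen-binding protein gene Sparc had 15.9, 102, 307 and 7.71 (-5.32), and Postn, another matricellular protein of fibroblasts, had 4.01, 44.6, 179 and 3.39 (-5.73). All of these were again high on the same pair of arrays. Acta1, the actin of skeletal muscle fibres, had 4.65, 62.7, 159 and 4.80 (-5.05), Myh4, a fast myosin heavy chain, had 2.09, 31.9, 75.6 and 2.63 (-4.84), and Car3, a carbonic anhydrase abundant in muscle, had 2.67, 79.9, 255 and 5.01 (-5.67). These muscle transcripts therefore followed the matrix transcripts from array to array. The collagen genes Col5a2, Col6a3, Col4a1, Col5a1, Col4a2 and Col6a2 had log2 ratios with LPS of -4.67, -4.44, -4.21, -3.67, -2.88 and -2.49. Of the other matrix genes, the proteoglycans Bgn and Dcn had -4.69 and -4.18, the collagen chaperone gene Serpinh1 had -3.62, and Tnc, Ccn2 and Timp2 had -3.33, -2.78 and -1.30. Tnnc2, Myl1, Mylpf and Tnni2, which encode parts of the contractile apparatus, had -4.56, -3.68, -3.10 and -1.83.

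The same order held for much of the lower end. Of the 61 lower genes, 34 (55.7%) were past 2-fold the other way with PBS, that is higher in MARCO-/-, counted at any brightness of the PBS arrays, and 2 were lower. Among all 5908 genes, 62 (1.05%) were higher with PBS and 19 lower. The PBS arrays hold no sample of the LPS comparison. Rgs5, a regulator of G protein signalling in pericytes, had 3.08, 22.2, 92.8 and 2.98 in the order used above, and Acta2, the actin of smooth muscle, had 8.42, 52.01, 162 and 12.3. Both had their highest values on the MARCO-/- PBS and WT LPS arrays, although Rgs5 was below 32 on the former. The other 3 members of the smooth muscle and pericyte list were under 2-fold, with Tpm1 at a log2 ratio of 0.62, Mylk at 0.50 and Synpo2 at 0.03. Of 5 fibroblast genes, Cxcl13, a chemokine for B cells made by stromal cells, and Thy1 were lower, and Vim, the intermediate filament gene, had 1728 and 1036 with LPS. Fabp4, a fatty acid carrier of fat cells, had 14.4, 76.1, 105 and 48.8 and was the only one of 3 adipocyte genes that was lower. Over all 30 collagens on the array, at any brightness, the intensities summed to 142, 573, 1591 and 144 in the order used above, and over 28 skeletal muscle genes to 310.4, 601, 1123 and 289.6. Their part in the other differences was not tested. Without the genes of the stromal, muscle and erythroid lists, 154 genes were higher and 32 lower. Xist, the noncoding RNA of the inactive X chromosome, followed the same order with 4.73, 12.9, 31.7 and 4.72. Its brighter value lay just below 32. The Y-linked gene Eif2s3y was bright on all arrays with 226, 206, 122 and 150.1, Kdm5d had 68.5, 61.8, 34.7 and 63.9, and Uty, below 32, had 20.4, 17.1, 14.2 and 28.8. The WT LPS array had the lowest value for each of these Y-linked genes. Xist and the Y-linked genes were chosen after their values were seen, and their part in the other differences was not tested.

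**Figure D3:**
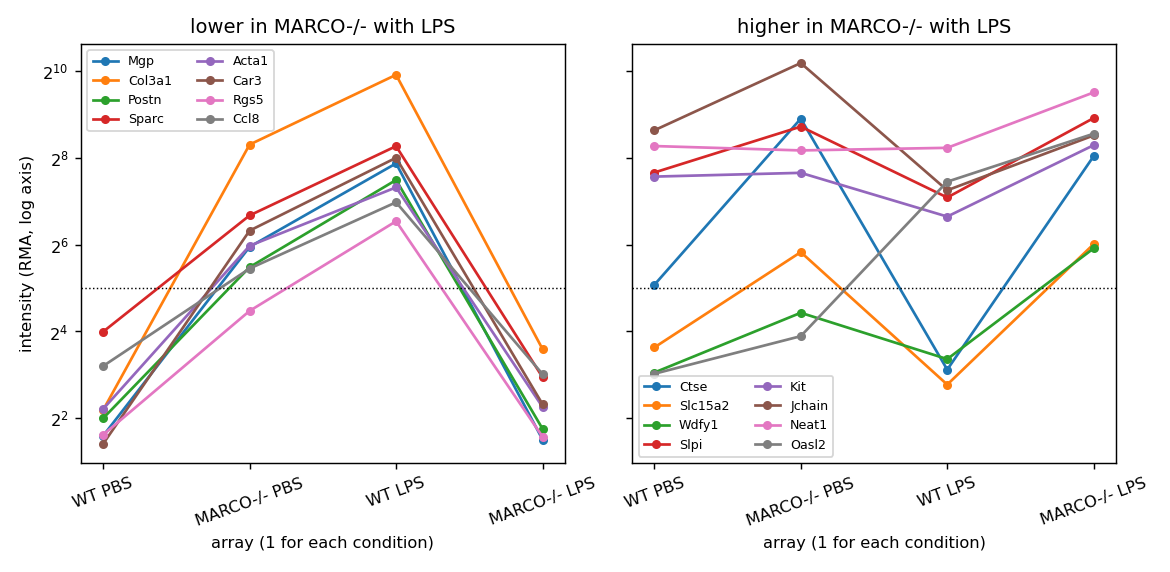
Lines join the intensities (RMA, log axis) of a gene on the 4 arrays, 1 for each condition, with the limit of 32 dotted. The lower genes (left) have their highest values in MARCO-/- with PBS and WT with LPS, with Col3a1 at 315 and 959. Rgs5 is below the limit in MARCO-/- with PBS. The higher genes (right) differ in their order.

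Of the 61 lower genes 23 stood in no list. Igfbp3, a carrier of insulin-like growth factors, had 3.55, 17.8, 58.4 and 3.82 and Fstl1, a secreted glycoprotein of mesenchymal cells, had 2.86, 14.8, 64.3 and 4.69. Both had their highest values on the same pair of arrays as the collagens, but were below 32 in MARCO-/- with PBS. Ccl8, a chemokine that attracts monocytes, had 9.22, 43.6, 126 and 8.11 (-3.95) and kept to that order as well. Ccl6, another chemokine of myeloid cells, did not, with 219.6, 189, 48.7 and 11.4 (-2.10), since it was bright on both PBS arrays. Of 12 chemokine ligand genes Ccl8, Ccl6 and Cxcl13 were lower and none was higher, against 1.03% lower and 2.61% higher over all genes. After quantile normalization the list held 14 genes with 5 lower and none higher. With centring over all probe sets, 3 of 12 were lower and 2 higher. C1qa, a chain of the complement starter C1q and a macrophage marker, had 239.5, 458, 36.8 and 6.06 (-2.60), and its PBS values ran the opposite way, with MARCO-/- above WT. Serping1, the inhibitor of C1, had 2.79, 9.10, 37.4 and 4.09 (-3.19). Hspb1, a small heat shock protein, had 13.7, 24.7, 60.4 and 8.07 (-2.90).

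Ctse was the highest gene of the comparison. It encodes cathepsin E, an aspartic protease of the endosomes that takes part in antigen processing for MHC class II. Its intensities were 33.6, 476, 8.71 and 262 in the order WT PBS, MARCO-/- PBS, WT LPS and MARCO-/- LPS, which made it 30.1-fold higher with LPS (log2 ratio 4.91). The MARCO-/- values were above the WT values with either culture, and the WT LPS value was close to background. Slc15a2, a transporter of di- and tripeptides that also takes up bacterial muropeptides, followed with 12.4, 56.7, 6.86 and 64.5 (9.40-fold higher). Its MARCO-/- value was also above that of WT on each pair of arrays. Wdfy1, an endosomal protein that binds phosphoinositides, had 8.31, 21.6, 10.3 and 60.3 (5.85-fold higher), and its second probe set gave a log2 ratio of 2.94. Slpi, a secreted protease inhibitor that is known to dampen macrophage responses to LPS, had 202, 419.7, 136 and 481 (3.55-fold higher). It was bright on all arrays and higher in MARCO-/- on both pairs.

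Other genes of the upper end were under 2-fold between genotypes with PBS. Cth, the enzyme that makes cysteine from cystathionine, had 3.30, 3.11, 7.36 and 38.2, and Lpar3, a receptor for lysophosphatidic acid, had 17.5, 25.3, 7.29 and 37.7. Kit, the receptor for stem cell factor, had 189, 201, 99.97 and 312 and was 3.12-fold higher with LPS. Its level was thus lowest in WT with LPS and highest in MARCO-/- with LPS. Nfat5, a transcription factor of the osmotic stress response, had 91.2, 104, 50.9 and 151, but a second probe set of it gave a log2 ratio of 0.21. Cdkn2d, an inhibitor of cyclin-dependent kinases, had 50.04, 40.9, 11.6 and 37.5, and Samd8, an enzyme of sphingolipid synthesis, had 38.5, 34.97, 14.1 and 47.7. The WT LPS value was the lowest of the 4 for both. Zmym6, 2310043L19Rik, Syn3, Cc2d2a, Nxpe4 and Igkv15-103 were also among the 20 highest genes, with log2 ratios of 2.31, 2.52, 1.64, 1.51, 1.53 and 1.63.

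Marco lies on chromosome 1, and so do Ctse, Wdfy1, 2310043L19Rik and Ifi204 of the 20 highest genes. Of 351 genes on that chromosome 18 (5.13%) were higher and 8 (2.28%) lower, against 2.61% and 1.03% over all genes. Its median log2 ratio, 0.14, was that of all genes. Col3a1, Col5a2, Col6a3, Rgs5, Myl1 and Fn1 of the lists above were among the 8 lower genes. Ifi204, an interferon-inducible sensor of DNA, had 4.87, 5.44, 10.4 and 32.7. Sequence that came along with the targeted allele and the loss of Marco cannot be told apart with these arrays. Nnt, a mitochondrial transhydrogenase known to be partly deleted in one C57BL/6 substrain, was another gene higher in MARCO-/- with either culture, at 31.2, 99.9, 13.9 and 37.7. It was chosen after its values were seen, and whether the colonies differ at that gene was not tested.

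Antiviral interferon-stimulated genes were among the groups with ratios above the rest. Of 37 such genes 6 were past 2-fold higher in MARCO-/- and none was lower, against 2.61% and 1.03% over all genes. Of the 37, 32 were above the median of all genes. Their median log2 ratio was 0.40 against 0.14 over all genes, and after quantile normalization 0.32 against 0.01. Oasl2, which belongs to the family of oligoadenylate synthetases, had 8.15, 14.8, 174 and 375 (2.15-fold higher), and Ddx60, a helicase of the RNA sensing pathway, had 20.6, 22.8, 78.5 and 164 (2.09-fold higher). Both were much brighter with LPS than with PBS, and brightest in MARCO-/- with LPS. Eif2ak2, the kinase PKR that stops translation on double-stranded RNA, had 3.90, 3.41, 16.9 and 36.6. Mx2, a GTPase that traps viral components, had 8.60, 9.44, 13.8 and 32.8, and Oas2, an oligoadenylate synthetase, had 6.32, 9.38, 14.98 and 33.05. These were dim even on the brightest array. Ifitm1, which blocks the entry of viruses, had 114, 148, 11.4 and 37.2 and differed from the rest in being brighter with PBS. After quantile normalization Ddx60, Eif2ak2 and Oas2 were under 2-fold, with log2 ratios of 0.94, 0.89 and 0.93. Mx2 kept 1.04, but its brighter value was then below 32. Of the 35 genes of the list then at 32 or more, 2 were called. The interferon-inducible GTPases, which attack the vacuoles of intracellular microbes, had no call among 11 genes and a median of 0.04. Tgtp1 had 1522 and 1155 and Irgm2 115 and 162 with LPS. Among 19 interferon regulatory and STAT factors none was called (median 0.25), with Irf7, which amplifies the interferon response, at 196 and 313 and Stat3 at 539 and 795.

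The interferon-stimulated response element is the sequence through which the interferon-activated factor complex binds, searched here as GAAA, any 2 bases and GAAA on both strands of 300 bases around each gene start in RefSeq (GRCm38.p6). It was present in 3.44% of 32851 promoters. Counted by gene, it was present in 3.99% of 27025 genes and in 12 of 27 genes of the antiviral list that have a promoter there. Of the called genes, Ddx60 and Eif2ak2 held it and Ifitm1 and Oasl2 did not, while Mx2 and Oas2 are named only. Both sequences with a match are shown, since they carry the element beside a ratio past 2-fold, with the match in capitals. That of Ddx60 lies at chr8:61927837-61928136 on the + strand and holds it at 2 places, and that of Eif2ak2 lies at chr17:78882523-78882822 on the - strand.
Ddx60: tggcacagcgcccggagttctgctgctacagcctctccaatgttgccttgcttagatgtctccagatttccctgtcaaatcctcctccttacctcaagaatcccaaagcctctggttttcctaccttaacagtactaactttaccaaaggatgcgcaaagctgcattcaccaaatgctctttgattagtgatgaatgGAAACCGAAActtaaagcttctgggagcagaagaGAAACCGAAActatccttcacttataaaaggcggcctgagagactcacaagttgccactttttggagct
Eif2ak2: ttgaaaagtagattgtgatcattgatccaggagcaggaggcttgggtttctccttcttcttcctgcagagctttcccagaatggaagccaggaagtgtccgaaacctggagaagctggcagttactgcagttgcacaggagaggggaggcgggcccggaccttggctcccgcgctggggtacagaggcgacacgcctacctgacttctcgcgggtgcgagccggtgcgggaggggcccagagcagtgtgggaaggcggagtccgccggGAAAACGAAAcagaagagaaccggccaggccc
A match describes these letters and does not show that a factor bound there. The other members of the list that hold it were under 2-fold. For the called genes of the heat shock, ER and NF-κB lists (Hspb1, Ern1, Map3k14 and Tbk1) the matching elements (GAA, any 2 bases, TTC, any 2 bases and GAA for heat shock, the ER stress element, and GGGA, any 4 bases and CC for NF-κB) were not found in this window. They were present in 0.603%, 0.119% and 20.7% of all promoters. Counted by gene, they were present in 0.662%, 0.137% and 22.9% of all genes. Of the members of these lists with a promoter there, 4 of 13, 8 of 24 and 9 of 15 held them.

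Among signalling genes around TLR4 the NF-κB list had ratios above the rest, and the receptors did not. The list of the LPS receptor and Toll-like receptors held 16 genes and no call (median 0.10). Tlr2, the receptor for bacterial lipopeptides, had 34.9 and 63.01 in WT and MARCO-/- with LPS, Cd14 had 71.3 and 105 and the adaptor Myd88 had 117 and 97.4. Of 18 NF-κB genes 2 were higher and none lower, against 2.61% and 1.03% over all genes. Of the 18, 14 were above the median of all genes. The median of the list was 0.42 (0.33 after quantile normalization). Map3k14, the NIK kinase of the non-canonical pathway, had 41.4, 47.1, 115 and 239, and Tbk1, which phosphorylates interferon regulatory factors, had 244, 243, 181 and 369.7. Both fell just under 2-fold after quantile normalization, at 0.96 and 0.95 on the log2 scale. Relb, the subunit that NIK activates, had 573 and 1049.6 with LPS. Feedback inhibitors of the pathway had no call among 21 genes (0.25). Socs3, which restrains cytokine receptors, had 48.2 and 69.6 and Irak3, which restrains the receptor complex, 28.5 and 41.5.

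Most cytokine genes had the higher value in MARCO-/- but stayed under 2-fold. Among 12 interleukins, TNF and colony stimulating factors the median was 0.41 with no call. Il10, an anti-inflammatory cytokine, had 3.39, 8.61, 27.6 and 51.01, Il1b had 338, 392, 333 and 604, and Il12b, a chain of IL-12 and IL-23, had 87.4, 82.01, 77.8 and 130.01. Each was brightest in MARCO-/- with LPS, although for Il1b and Il12b the LPS value of WT did not exceed that with PBS. Cxcl1, which attracts neutrophils, had 28.9 and 57.7 with LPS, and Cxcl10, an interferon-induced chemokine, 102 and 198. These ratios were just below 2-fold. Fpr2, a receptor for formyl peptides, had 17.7, 59.05, 145 and 287, and was the highest of 7 chemoattractant receptor genes, none of which was called. Pla2g7, which degrades platelet-activating factor, had 390.4 and 749, and Ptgs2, the inducible cyclooxygenase, 174 and 125, the highest and lowest of 5 genes of lipid mediators.

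**Figure D4:**
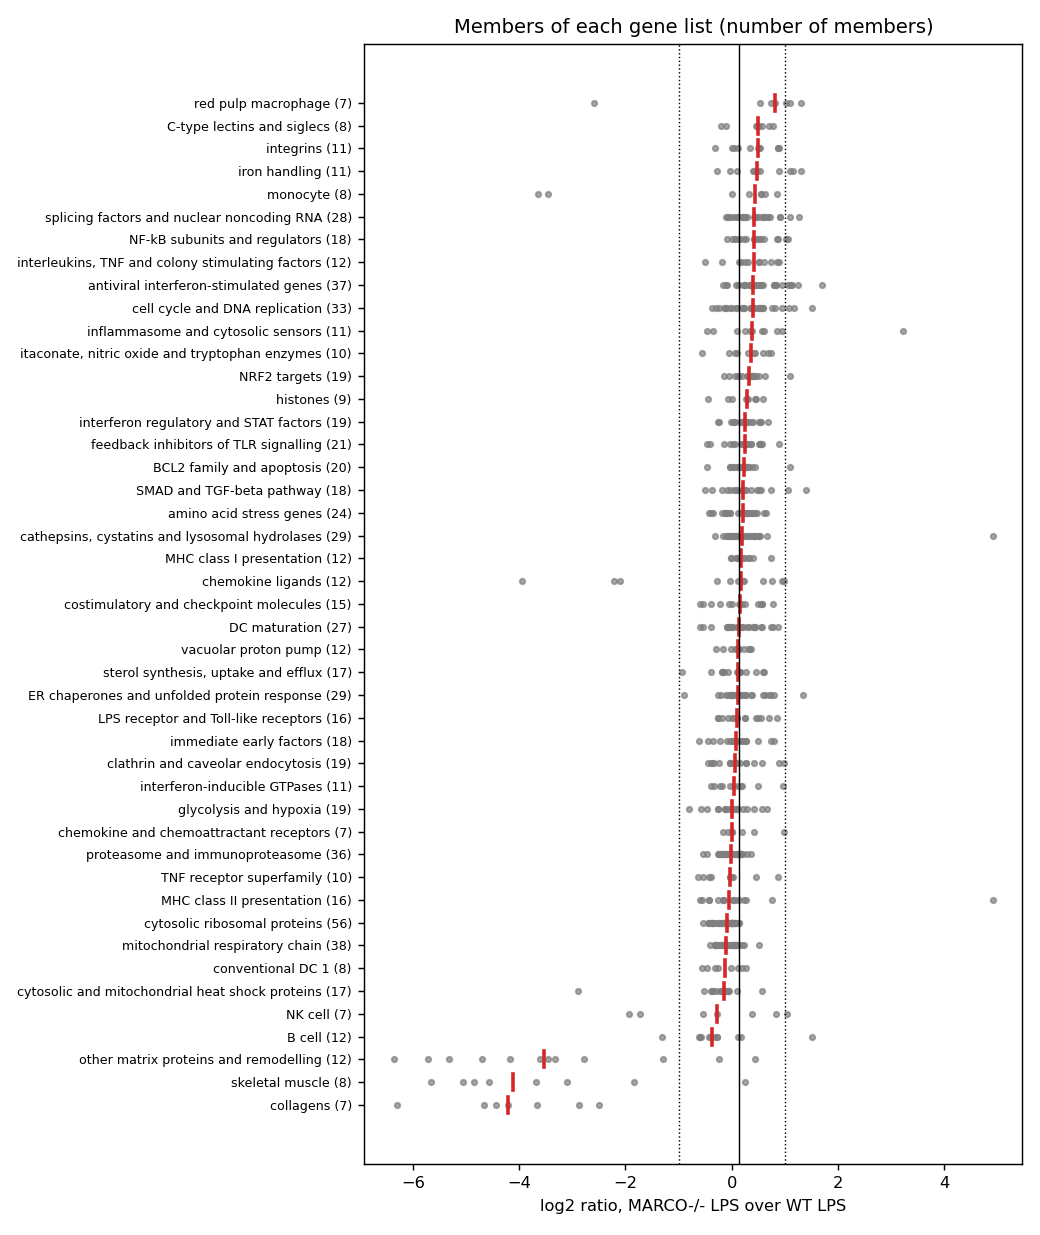
Each row is a gene list shown here, of those with at least 7 members, each point a member and each red bar the median of the log2 ratio of MARCO-/- LPS over WT LPS. The black line is the median of all genes (0.14) and dotted lines mark 2-fold. Collagens, skeletal muscle and other matrix genes stand apart at -4.21, -4.12 and -3.54.

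DC maturation genes were near even in their median. None of 27 was called, and their median of 0.14 was that of all genes. Single members had log2 ratios from -0.60 to 0.87. After quantile normalization 1 of 28 genes was lower and none higher. Cd80, a ligand that costimulates T cells, had 41.05, 40.2, 258 and 441, while Cd40, the receptor for T cell help, had 204, 206, 649 and 446. Pdcd1lg2, an inhibitory ligand for PD-1, had 20.2, 29.8, 116 and 76.3. All of these were brighter with LPS in both genotypes, with Cd80 above and the other 2 below the WT value in MARCO-/-. Markers of the conventional DC 1 (8 genes, median -0.13) and of plasmacytoid DC (4 genes, 0.11) had no call. Of 5 conventional DC 2 genes, Sirpa, an inhibitory receptor for CD47, was higher at 37.6 and 77.4 with LPS, and it was under 2-fold after quantile normalization (0.86).

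Antigen presentation genes other than Ctse were under 2-fold. The 16 genes of the MHC class II list had a median of -0.06, and after Ctse the largest ratios were those of Rfxap, a factor for class II transcription (0.75), and H2-Oa, a modulator of peptide loading (-0.60). H2-DMa, which exchanges peptides on class II, had 1105, 872, 138 and 103. For MHC class I the median was 0.17 over 12 genes, with H2-K1 at 3247 and 4266 and H2-Q4 at 196 and 327 with LPS. The 12 genes of the vacuolar proton pump, which acidifies endosomes, had a median of 0.12, and the 29 cathepsins, cystatins and lysosomal hydrolases one of 0.20 with Ctse as the only call. The bright cathepsin gene Ctsz had 1187 and 1702.

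Red pulp macrophage and iron genes held several higher members. Of 7 macrophage genes 3 were higher and 1, C1qa, lower (median 0.81), and of 11 genes of iron handling 3 were higher and none lower (0.47). Over all genes 2.61% were higher and 1.03% lower, with a median of 0.14. At a floor of 16 the macrophage list held 9 genes, with 3 higher and 3 lower (median 0.74). After quantile normalization 1 of its 7 genes was higher and 1 lower. Slc40a1, the iron exporter ferroportin, had 521, 703, 14.98 and 36.9, and Hmox1, which breaks down heme, had 95.8, 120.4, 30.6 and 65.4. Adgre1, which encodes the F4/80 antigen, had 182, 298, 35.6 and 72.2. These were all brighter with PBS than with LPS, although for Hmox1 in MARCO-/- by less than 2-fold, and the MARCO-/- value was the higher one on both pairs. Aco1, an iron-regulated aconitase, had 31.2, 25.4, 19.2 and 42.7, lowest in WT with LPS. Spic, the factor that specifies red pulp macrophages, had 189, 234, 247 and 434. The globin transcript Hba-a1 also had the higher value in MARCO-/- on both pairs, under 2-fold, with 4372, 6275, 3971 and 6792. All 14 erythroid genes on the array summed to 7311, 10531, 6960.4 and 11176. These sums consist largely of Hba-a1, so they do not speak for the other members. Only 4 of the 14 reached 32 with LPS, and none was called. The part of erythroid transcripts in the iron genes was not tested. Hmox1, Adgre1 and Aco1 were under 2-fold after quantile normalization (0.89, 0.84 and 0.92), and Slc40a1 remained above it (1.09). Of 19 NRF2 targets, which respond to oxidants, Hmox1 alone was called (median 0.32), and Gclm, for glutathione synthesis, had 173 and 267.

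Genes of lymphoid and other myeloid cells differed in both directions. Gzma and Gzmb, the granzymes of cytotoxic cells, were lower with 597, 277, 209 and 54.7 and 41.6, 20.1, 84.7 and 25.7, while Klrk1, the activating receptor NKG2D, was higher with 119, 111, 33.3 and 68.5. The granzymes were thus lower in MARCO-/- on both pairs of arrays, whereas Klrk1 was near even with PBS. After quantile normalization the log2 ratio of Klrk1 was 0.85, under 2-fold. All 13 NK cell genes on the array, of which 7 reached 32, summed to 621 for WT and 473 for MARCO-/- on the LPS arrays. These sums include Gzma at 209 and 54.7 and Gzmb at 84.7 and 25.7, so they do not speak for the other members. Of the 7 genes, 3 had log2 ratios above 0 and 4 below. Of 12 B cell genes Vpreb3, a chaperone of the immunoglobulin light chain, was higher at 17.6 and 50.02 and Ebf1, a factor of B cell identity, lower at 211 and 84.8 with LPS. The median of the B cell list was -0.37, and all 14 of its genes on the array summed to 3337, 2720.0, 3585 and 2711 in the order of the arrays. For Ebf1 the median of its probe sets was under 2-fold. Jchain, which joins antibody chains, had 396, 1157, 152 and 365, and Prdm1, the factor of plasma cell fate, had 10.04, 14.5, 24.2 and 61.8. None of 3 T cell genes was called. F13a1, a clotting factor of monocytes, had 4.26, 10.9, 38.4 and 3.07 and Fn1, fibronectin, had 6.38, 37.8, 94.2 and 8.57, and they were the lower members among 8 monocyte genes. Their order was that of the collagens. Kit was the only member of the mast cell and basophil list at 32 or more, and platelet, pancreatic acinar and mesothelial lists had none.

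Cell cycle genes were higher in part. Of 33 genes 3 were higher and none lower, against 2.61% higher over all genes. The median was 0.40 (0.26 after quantile normalization). Plk1, a mitotic kinase, had 19.96, 18.01, 11.6 and 33.3, Ccnb2, a mitotic cyclin, had 71.5, 66.2, 19.3 and 43.4, and Bub1, a kinase of the spindle checkpoint, had 39.4, 47.7, 24.7 and 52.3. WT with LPS had the lowest value for each of them. After quantile normalization none of the list was called: the log2 ratios of Ccnb2 and Bub1 were 0.94 and 0.86, and Plk1 kept 1.31 but its brighter value was then below 32. Mki67, a marker of cycling cells, had 232, 265, 90.8 and 153 and Rrm2, for nucleotide supply, 87.4, 81.2, 98.3 and 190.03, both under 2-fold.

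Splicing factors and nuclear noncoding RNA had a like shift. Of 28 genes 2 were higher and none lower, against 2.61% higher over all genes (median 0.42, and 0.35 after quantile normalization). Neat1, the RNA that builds paraspeckles, had 308, 287, 299 and 724 (2.42-fold higher), and its values were even on the other arrays. Pnisr, a splicing-related nuclear protein, had 151, 149, 45.4 and 96.6, and it was under 2-fold after quantile normalization (0.91 on the log2 scale). Clk1, a kinase of splicing factors, had 1038, 960.1, 309 and 583, and Malat1, a noncoding RNA of nuclear speckles, 375, 364, 185 and 298. For these the PBS values were even between genotypes, and WT with LPS was the lowest array.

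Several stress and housekeeping groups had medians below that of all genes (0.14), but not all of them. The ER list was close to it at 0.11, and the NRF2 targets had 0.32. Of 17 heat shock genes 15 were below 0, although Hspb1 alone was called (median -0.15), with Hspa8, a constitutive chaperone, at 3742 and 2841. The 56 ribosomal protein genes had no call and 42 were below 0 (median -0.09), but after quantile normalization their median was -0.03, so they lost most of that difference to the scaling. Respiratory chain genes had a median of -0.10 over 38 genes, which became -0.18. The 36 proteasome genes had one of -0.02, with Psmb3 at 1046 and 724 and the immunoproteasome subunit Psmb8 at 1414 and 1813. Among 29 genes of the ER chaperones and unfolded protein response Ern1, the sensor IRE1, was higher at 71.3, 64.9, 27.9 and 70.4. Hyou1, an ER chaperone, had 77.2, 92.9, 103 and 54.9 and Herpud1, which serves ER-associated degradation, 481, 498, 205 and 357, so the group held ratios on both sides (median 0.11). Of the glycolysis and hypoxia genes none of 19 was called. Pfkfb3, which drives glycolysis, had 373 and 591 and Ldha, lactate dehydrogenase, 744 and 498, which lie on opposite sides as well.

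Adhesion and uptake genes were under 2-fold with few exceptions. Of 11 integrin genes none was called (median 0.49). Itgb2, the shared chain of the leukocyte integrins, had 622, 761, 80.3 and 149, and Itga4, a chain of VLA-4, had 442, 504, 224 and 409. The MARCO-/- value was just under 2-fold above that of WT for both with LPS, and within 1.5-fold of it with PBS. Of 19 genes of clathrin and caveolar endocytosis none was called, and Itsn1, a scaffold of coated pits, came closest with 17.1 and 33.9. Among 5 scavenger receptor and ligand genes Lgals3bp, a secreted galectin ligand, was higher at 90.1 and 183, and Cd36 had 92.4 and 164. Fcer1g, the signalling chain of Fc receptors, had 677, 958, 175 and 372 and was the only one of 5 genes of its list past 2-fold. Of 18 SMAD and TGF-β genes Tgfbi, a matrix protein also made by macrophages, was higher with 488, 689, 81.3 and 213. So was Smad7, an inhibitor of the pathway, with 85.8, 85.8, 15.9 and 33.2. Over all genes 2.61% were higher. The median of the SMAD and TGF-β list was 0.22, against 0.14 over all genes, and after quantile normalization 0.02 against 0.01. After quantile normalization Smad7 and Lgals3bp were under 2-fold, at log2 ratios of 0.84 and 0.91. Pmaip1, the apoptosis inducer NOXA, was higher with 1049, 1074, 234 and 504, the only call among 20 genes of the BCL2 family and apoptosis.

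With both cultures 5242 genes reached 32 on their pair of arrays, and few of them differed in both. Higher in MARCO-/- with PBS and with LPS were 7 genes (Ctse, Slc15a2, Slpi, Nnt, Cyb5r1, Jchain and Pisd-ps3), and lower in both were Gzma and Gzmb. Pisd-ps3, a pseudogene, had 39.8, 399, 54.6 and 112 and Cyb5r1, a reductase, had 67.9, 165, 12.4 and 32.2. There were 13 genes higher with PBS and lower with LPS and 1, Adam11, the other way. A further 99 of the 5242 genes were higher and 16 lower with LPS while under 2-fold with PBS. In the LPS comparison 2.61% of genes were higher and 1.03% lower, and in the PBS comparison 0.846% and 0.432%. With calls this rare, a missing call with PBS does not mark a gene as particular to LPS. Whether the ratios of these genes differ between cultures was not tested.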

How the data were processed

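RNA of splenic DC was hybridized to 4 Affymetrix arrays, 1 per condition, without replicates, so no test was run. The deposited values are intensities that the authors background-corrected, normalized and summarized with RMAexpress on a linear scale. Its version is not stated there. Such normalization sets the 4 arrays to a shared scale, so ratios are relative. From 45141 probe sets 104 controls were left out. Log2 ratios of MARCO-/- over WT were taken with no offset and called at 2-fold where the brighter value was at least 32. Symbols came from the platform annotation, and a gene was its brightest probe set with that symbol alone. The number of arrays limits the precision. Members, 64 gene lists and tests were chosen with earlier results of these data known, and 1 list is not reported here. Names were drawn from Marco, H2-Aa, Itgax, Ctse, the 20 highest and 20 lowest genes, up to 6 members of each list with the largest ratios, the 2 brightest and list members past 2-fold, and not each of them is printed. Any other gene was chosen after its values were seen. Alternatives were other scalings, floors, thresholds and rules for probe sets. The steps were tested on simulated data. Python 3.11.15 with numpy 2.4.6, pandas 2.3.3 and matplotlib 3.10.9, and R 4.3.3 with limma 3.58.1, were used.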

Additional observations from a re-analysis of the deposited data

Results flagged for a closer look

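For 14 genes that reached 32 with both cultures, the MARCO-/- over WT ratio was past 2-fold in opposite directions with PBS and with LPS. With 1 array per condition this difference between cultures was not tested. Above WT with PBS and below it with LPS were matrix genes, with log2 ratios with LPS of -6.35 for Mgp, -6.31 for Col3a1, -5.73 for Postn, -5.32 for Sparc, -4.69 for Bgn, -4.21 for Col4a1, -3.46 for Fn1 and -2.78 for Ccn2. The muscle genes Car3, Acta1 and Acta2 had -5.67, -5.05 and -3.72. The chemokine gene Ccl8 had -3.95 and the fat cell gene Fabp4 had -1.10. The reverse order was seen for Adam11, a gene of the metalloprotease family, whose log2 ratio with LPS was 1.20.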

How the results depend on the processing

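No paired analysis was possible because each condition has 1 array. As deposited, 297 probe sets and 154 genes were higher and 112 and 61 lower. Quantile normalization gave 137 and 73 higher and 170 and 87 lower, cyclic loess 140 and 76 higher, and centring on the members' medians 155 and 81 higher, whereas centring on the medians of all probe sets gave 434 and 231 higher and 102 and 58 lower. A floor of 16 gave 567 and 263 higher and 215 and 107 lower, one of 64 gave 132 and 70 higher and 56 and 31 lower, one of 8 on the log2 scale gave 21 and 15 higher and 12 and 4 lower, and no floor gave 838 and 348 higher and 446 and 228 lower. A threshold of 1.5-fold gave 1450 and 750 higher and 301 and 146 lower, and one of 3-fold 37 and 15 higher. Without names ending in x_at, s_at or a_at 74 probe sets were lower, and without stromal, muscle and erythroid lists 32 genes. Of 85 named genes past 2-fold, 15 fell under it with quantile normalization and 16 with centring on the members' medians, among them Oasl2, Fcer1g and Pmaip1. The neutrophil list, 1 gene at a floor of 32 (0.56), had a median of -0.63 at 16, where it holds 3 genes. Other short lists changed sign with the floor: endothelial from 0.47 to -1.61 at 16 (5 of 9 genes lower), smooth muscle and pericyte from 0.03 to -0.48 at 16 and -3.72 at 64, T cell from -0.01 to 0.34 at 16, and complement from -0.23 to 0.37 at 64. Values near the background limit the lower folds.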
